A study of Mus musculus with 9 samples.

Results

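Described here are 10 genes used as macrophage markers, Cd68, Lyz2, Ctss, Csf1r, Tyrobp, Fcer1g, Laptm5, Ptprc, Cd14 and Aif1, out of 19938 genes measured in cultured mesenchymal cells of the fetal mouse prostate. The genes were taken by symbol, each had 1 probeset in the table, and all 10 were measured with no filter on low signals. The cells came from the urogenital sinus, the tissue that forms the prostate, of male CD-1 mouse fetuses on gestation day 17, and were used at first passage, after epithelial cells had been removed by letting them settle. Cells of all groups were held for 3 days in charcoal-stripped serum with 690 pM dihydrotestosterone (DHT) as the androgen. For the next 4 days they received the ethanol vehicle with no E2, 10 pM estradiol (E2) or 100 pM E2, with 3 arrays in each group. DHT stayed at 690 pM in all groups during these 4 days. Nothing in the sample labels says that the replicates were separate cultures or animals, or whether cells of several fetuses were pooled, so the p-values speak only of how far these samples scattered, and that scatter may be technical.

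Macrophages are phagocytes that reach fetal organs from the yolk sac and fetal liver, and they live in connective tissue beside the mesenchymal cells. They survive on signals through the receptor Csf1r, whose ligands Csf1 and Il34 are made by neighbouring cells, and they carry Fc receptors and pattern receptors that signal through the small adaptor proteins Tyrobp and Fcer1g. Engulfed material is digested in lysosomes by enzymes such as cathepsin S and lysozyme. In a bulk culture, fewer cells of a type and less RNA per cell cannot be told apart. Some genes used as macrophage markers, Cd68 among them, can also be transcribed at a lower level in fibroblasts.

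Values are log2 signals of Affymetrix Mouse Gene 1.0 ST arrays as deposited, and array medians lay between 6.17 and 6.20. Differences of group means, their standard errors (SE) and p-values come from limma, fitted on all genes and adjusted by the Benjamini-Hochberg method over all of them, and a gene is called at an adjusted p below 0.05. Across all genes, 100 pM E2 against vehicle called 0.446% of genes higher and 0.687% lower, and 10 pM E2 against vehicle called 0% higher and 0% lower. The contrast of 100 pM E2 against 10 pM E2 called 0.226% higher and 0.607% lower, and the F test over the 3 groups called 0.843%. Mean signals of 10 mesenchymal marker genes, Vim, Col1a1, Col3a1, Dcn and others, were between 11.52 and 11.53 on the vehicle arrays, between 11.54 and 11.55 on the 10 pM arrays and between 11.37 and 11.44 on the 100 pM arrays. No detection call comes with the values and log2 signals have no true zero, so whether a dim macrophage gene lay above background could not be read, and levels of different probesets were not set against each other.

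Promoter sequences in RefSeq (mouse build GRCm38.p6) were matched for 7 of the 10 genes, and those of Csf1r, Tyrobp and Cd14 were not matched. The 250 bases before the transcription start are shown for Cd68 and Lyz2, because these had the smallest p-values of the 10 genes for 100 pM E2 against vehicle, and for Lyz1, the neighbouring gene that codes for a second lysozyme. The Cd68 window lies at chr11:69666171-69666420 on the minus strand, the Lyz2 window at chr10:117282273-117282522 on the minus strand, and the Lyz1 window at chr10:117292869-117293118 on the minus strand. Capitals mark matches to the core motifs of the myeloid transcription factor encoded by Spi1, searched as GAGGAA and GGAAGT on both strands, and ACTTCC is GGAAGT on the other strand.
Cd68: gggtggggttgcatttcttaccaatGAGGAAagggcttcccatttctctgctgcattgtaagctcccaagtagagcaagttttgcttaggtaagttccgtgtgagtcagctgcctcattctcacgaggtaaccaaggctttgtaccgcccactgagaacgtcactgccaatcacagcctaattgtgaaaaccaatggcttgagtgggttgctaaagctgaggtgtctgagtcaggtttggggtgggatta
Lyz2: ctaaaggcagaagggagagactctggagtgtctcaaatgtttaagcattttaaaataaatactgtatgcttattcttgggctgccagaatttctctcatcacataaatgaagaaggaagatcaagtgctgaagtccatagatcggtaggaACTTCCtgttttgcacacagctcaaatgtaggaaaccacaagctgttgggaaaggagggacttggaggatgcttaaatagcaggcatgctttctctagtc
Lyz1: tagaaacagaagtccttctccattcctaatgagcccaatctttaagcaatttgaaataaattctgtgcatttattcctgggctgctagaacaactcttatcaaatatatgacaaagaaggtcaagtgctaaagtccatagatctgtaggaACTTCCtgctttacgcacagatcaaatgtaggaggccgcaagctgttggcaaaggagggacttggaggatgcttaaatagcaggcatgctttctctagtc
Without gaps, the 250 bases of Lyz2 and Lyz1 were 60.8% identical, the 100 bases nearest to the start 92.0%, and 49 of the first 50 transcribed bases were the same. Probe sequences and the rest of the transcripts were not compared. Whether the probes of Lyz2 and Lyz1 take up each other's transcripts was not tested, so it is uncertain which gene their signals count. The 7 matched marker genes had 8 windows, because Ptprc had a second one, while shares over the genome count windows. GAGGAA occurred in the windows of 5 of the 7 genes, Aif1, Cd68, Ctss, Laptm5 and Ptprc (5 of the 8 windows). Over the genome it occurred in 23.3% of 32851 promoter windows. GGAAGT occurred in 3 of the 7 genes, Laptm5, Lyz2 and Ptprc (4 of the 8 windows), and in 19.7% of all windows. The longer AGGAAGT, which contains GGAAGT, was found for Lyz2 and Ptprc (3 of the 8 windows) and in 7.69% of all windows. GAGGAAGT, which contains both, was found for 0 of the 7 genes and in 2.44% of all windows. A match is a description of the letters and no evidence of binding.

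The lysosomal and secreted products of phagocytes held both genes with the smallest p-values. Cd68 codes for macrosialin, a glycoprotein of the lysosomal membrane. Its log2 signal was 6.72, 6.63 and 6.69 on the vehicle arrays, 6.46, 6.57 and 6.58 on the 10 pM arrays, and 6.50, 6.34 and 6.35 on the 100 pM arrays. All 3 of the 10 pM arrays and all 3 of the 100 pM arrays lay below the lowest vehicle array, while the 2 doses overlapped. Cd68 averaged 6.39 ± 0.09 at 100 pM E2 and 6.68 ± 0.05 in vehicle (SD, n = 3 each), a difference of -0.28 (SE 0.06, 95% interval -0.41 to -0.16) with an adjusted p of 0.0525 in limma, just outside the threshold. At 10 pM E2 it averaged 6.54 ± 0.07 (SD, n = 3), a difference of -0.14 from vehicle with an unadjusted limma p of 0.0306 and an adjusted p of 1. The step between the doses, 100 pM minus 10 pM, was also -0.14 (adjusted p = 0.426 in limma). In the contrast of 100 pM E2 and vehicle, 6 of 20 other settings placed Cd68 past the threshold. They include the same fit read at an adjusted p below 0.10, which the limma value of 0.0525 meets by itself. Another left out the first 100 pM array, where the difference was -0.33 with an adjusted limma p of 0.0249.

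Lyz2 codes for lysozyme M, the bacteria-degrading enzyme that macrophages and neutrophils secrete. Its signal was 6.54, 6.95 and 6.62 on the vehicle arrays, 6.66, 6.97 and 6.09 on the 10 pM arrays, and 5.77, 5.55 and 6.17 on the 100 pM arrays. The 100 pM arrays all lay below the vehicle arrays, and the third 10 pM array lay among the 100 pM arrays. Lyz2 averaged 5.83 ± 0.31 at 100 pM E2 and 6.70 ± 0.21 in vehicle (SD, n = 3 each). The difference of -0.88 (SE 0.23, 95% interval -1.39 to -0.36), or 0.545 times the vehicle level, was larger in size than that of any other of the 10 genes, and its adjusted limma p was 0.155. Its arrays also scattered most, with a pooled SD within groups of 0.338. Between 100 pM and 10 pM E2 the difference was -0.74 (adjusted p = 0.275 in limma), and between 10 pM E2 and vehicle it was -0.13 (adjusted p = 1), which turned to 0.109 without the third 10 pM array. The neighbouring Lyz1 had a difference of -0.26 between 100 pM E2 and vehicle, with an adjusted limma p of 0.477.

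Ctss, cathepsin S, cuts the invariant chain during antigen presentation. Its signal was 6.68, 7.03 and 6.51 on the vehicle arrays, 6.58, 6.94 and 6.59 on the 10 pM arrays, and 6.36, 6.57 and 6.58 on the 100 pM arrays. The second vehicle array and the second 10 pM array stood above the other 7 arrays, which spanned 6.36 to 6.68. All 100 pM arrays were below all 10 pM arrays, by less than their own spread, and they overlapped with vehicle. The difference between 100 pM E2 and vehicle was -0.24 (95% interval -0.56 to 0.08, adjusted p = 0.605 in limma), and -0.0902 without the second vehicle array. Laptm5, a lysosomal membrane protein of blood-derived cells, gave 5.56, 5.87 and 5.64 in vehicle, 5.63, 5.62 and 5.69 at 10 pM E2, and 5.65, 5.57 and 5.28 at 100 pM E2. The third 100 pM array was its lowest and the second vehicle array its highest, and all 3 groups overlapped. Its difference between 100 pM E2 and vehicle was -0.19 (95% interval -0.42 to 0.05, adjusted p = 0.572), and -0.0774 without the third 100 pM array or -0.0949 without the second vehicle array.

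**Figure D1:**
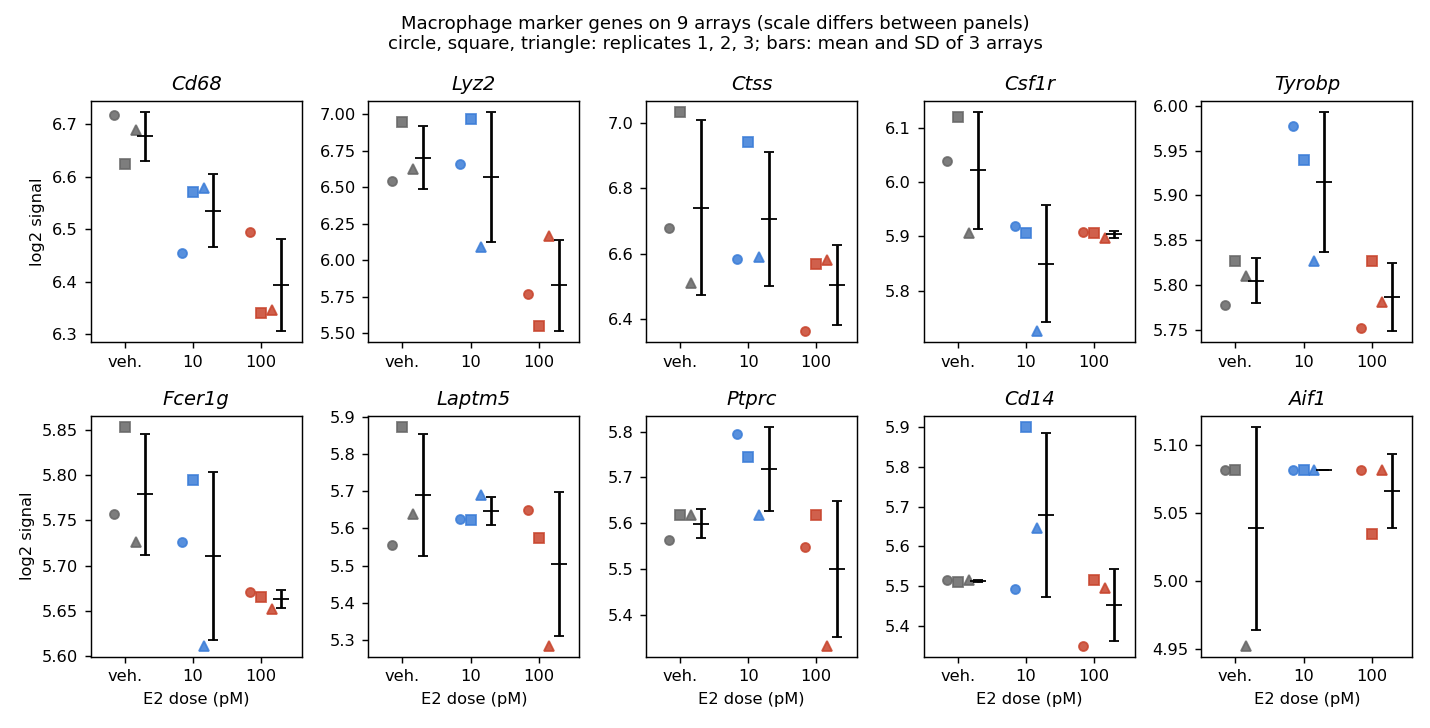
Log2 signal (vertical axis, a separate range in each panel) of the 10 macrophage marker genes against E2 dose in pM, with the vehicle at the left. Circles, squares and triangles are replicates 1, 2 and 3, and each bar gives a group's mean with its SD (n = 3). Cd68 and Lyz2 at 100 pM E2 lie wholly below vehicle, while 7 of the 9 Aif1 points share 1 value.

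Among the receptors, Csf1r, the receptor for Csf1 and Il34 on which macrophage survival depends, gave 6.04, 6.12 and 5.91 in vehicle, 5.92, 5.91 and 5.73 at 10 pM E2, and 5.91, 5.91 and 5.90 at 100 pM E2. The third vehicle array lay with the E2 arrays, so the groups overlapped. Csf1r differed by -0.12 between 100 pM E2 and vehicle (adjusted p = 0.576 in limma) and by -0.17 between 10 pM E2 and vehicle (unadjusted p = 0.0286, adjusted p = 1). Cd14, which hands bacterial lipopolysaccharide to the Toll-like receptor Tlr4, gave 5.52, 5.51 and 5.52 in vehicle, 5.49, 5.90 and 5.65 at 10 pM E2, and 5.35, 5.52 and 5.49 at 100 pM E2. Its second 10 pM array stood above all others, and the first 100 pM array below. Cd14 differed by 0.17 between 10 pM E2 and vehicle (adjusted p = 1 in limma) and by -0.23 between the doses, 100 pM minus 10 pM (unadjusted p = 0.0356, adjusted p = 0.443). Without the second 10 pM array these were 0.0552 and -0.116, and without the first they were 0.259 and -0.319. Ptprc codes for CD45, a phosphatase on the surface of nearly all white blood cells. It gave 5.56, 5.62 and 5.62 in vehicle, 5.80, 5.74 and 5.62 at 10 pM E2, and 5.55, 5.62 and 5.33 at 100 pM E2, with 4 arrays at the same value. Ptprc differed by 0.12 between 10 pM E2 and vehicle and by -0.22 between 100 pM and 10 pM E2 (adjusted limma p of 1 and 0.336).

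Tyrobp and Fcer1g are paired here because both code for membrane adaptors with an immunoreceptor tyrosine-based activation motif (ITAM), which recruits the kinase Syk. Tyrobp gave 5.78, 5.83 and 5.81 in vehicle, 5.98, 5.94 and 5.83 at 10 pM E2, and 5.75, 5.83 and 5.78 at 100 pM E2. Its 10 pM mean of 5.91 lay above the vehicle mean of 5.81, by 0.11 (unadjusted p = 0.0397, adjusted p = 1 in limma), and the 100 pM mean differed from the 10 pM mean by -0.13 (adjusted p = 0.368). Fcer1g gave 5.76, 5.85 and 5.73 in vehicle, 5.73, 5.80 and 5.61 at 10 pM E2, and 5.67, 5.67 and 5.65 at 100 pM E2. All 100 pM arrays of Fcer1g were below all vehicle arrays, with a difference of -0.12 (95% interval -0.24 to 0.004, adjusted p = 0.48 in limma). The highest group mean was that of 10 pM E2 for Tyrobp and of vehicle for Fcer1g, and this difference between the genes was not tested.

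Aif1, also called Iba1, an actin-binding protein used to stain macrophages and microglia, varied least. Its signal was 5.08, 5.08 and 4.95 in vehicle, 5.08 on all 3 of the 10 pM arrays, and 5.08, 5.03 and 5.08 at 100 pM E2, and 7 of the 9 arrays held exactly 5.08177. Such repeats were common in the deposited values: 9826 of all 19938 genes (49.3%) and 5 of the 10 marker genes had 1 value shared to the last digit by at least 3 arrays. Besides Aif1 these were Ptprc with 4 such arrays and Csf1r, Tyrobp and Cd14 with 3 each. The origin of these repeats was not tested. Cd68, Lyz2, Ctss and Laptm5 had no repeated value.

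Of the 10 marker genes, limma called 0 in each of the 3 contrasts and 0 by the F test, against the shares of all genes given above. At an unadjusted p below 0.05, 2 of the 10 passed for 100 pM E2 against vehicle (Cd68 and Lyz2), 3 for 10 pM E2 against vehicle (Cd68, Csf1r and Tyrobp) and 5 for 100 pM against 10 pM E2 (Cd68, Lyz2, Tyrobp, Ptprc and Cd14). For comparison, 2164, 705 and 2028 of all 19938 genes passed in these contrasts. The test without moderation also called 0 of the 10 in each contrast. In direction, 9 of the 10 had a lower mean at 100 pM E2 than in vehicle, the exception being Aif1, while 47.1% of all genes were lower. At 10 pM E2, 6 of the 10 were lower than vehicle (46.4% of all genes), and 9 of the 10 were lower at 100 pM than at 10 pM E2 (49.5% of all genes), the exception being Csf1r. The median difference of the 10 genes was -0.117 for 100 pM E2 against vehicle (0.00490 over all genes), -0.0391 for 10 pM E2 against vehicle (0.00455 over all genes) and -0.142 for 100 pM against 10 pM E2 (0.000610 over all genes). The median for 10 pM E2 against vehicle turned positive, to 0.0330 without the third 10 pM array and to 0.0566 without the second vehicle array. Each pair of these comparisons shares 3 arrays, so they are not separate evidence.

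Arrays of 100 pM E2 and vehicle did not overlap for 3 of the 10 genes, Cd68, Lyz2 and Fcer1g, all lower at 100 pM. Of all genes, 12.5% had arrays that did not overlap in either direction, and 1175 of 19938 did so with lower values at 100 pM. For 10 pM E2 against vehicle, arrays did not overlap for 1 of the 10, Cd68, and for 5.93% of all genes in either direction. For 100 pM against 10 pM E2 they did not overlap for 1 of the 10, Ctss, and for 12.3% of all genes in either direction. For Tyrobp, Aif1 and Csf1r the 95% intervals of the difference between 100 pM E2 and vehicle lay between -0.27 and 0.12, and for Lyz2 the interval reached -1.39.

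**Figure D2:**
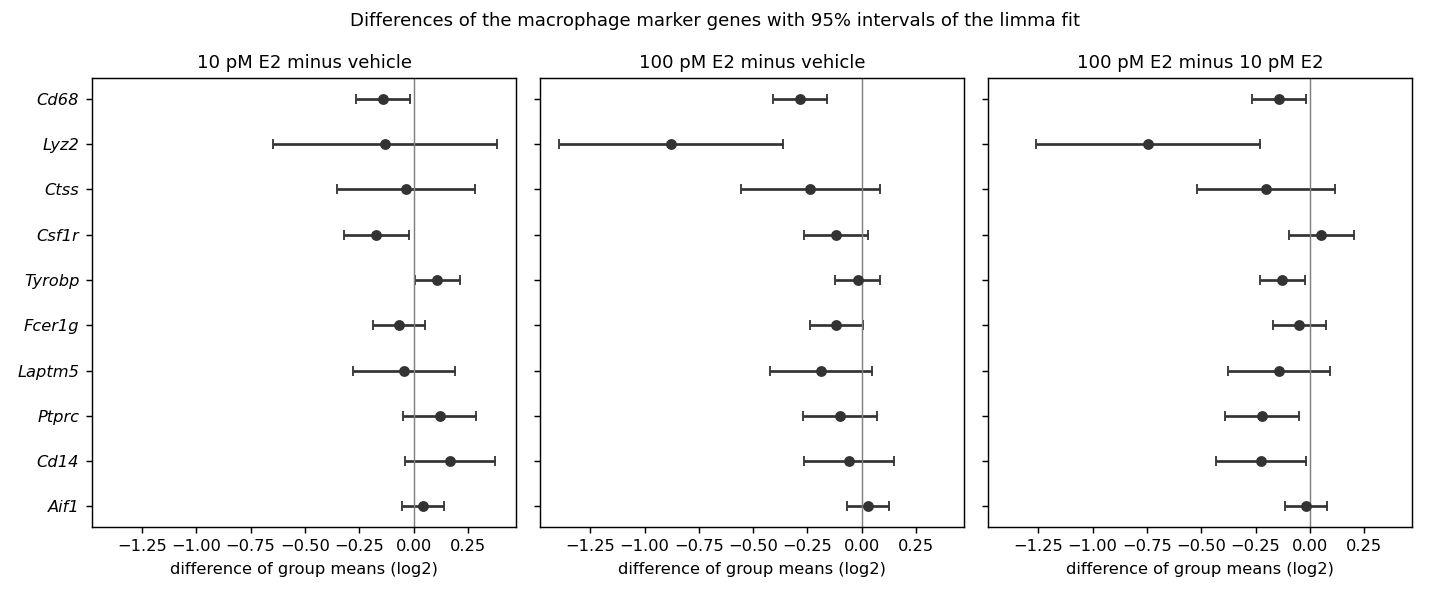
Differences of group means (horizontal axis, log2) of the 10 macrophage marker genes, with points for the estimate and bars for the 95% interval of the limma fit over 9 arrays. The panels show, from left to right, 10 pM E2 minus vehicle, 100 pM E2 minus vehicle and 100 pM E2 minus 10 pM E2. The estimates of 100 pM E2 minus vehicle lie between -0.88 for Lyz2 and 0.03 for Aif1, and 9 of the 10 are below 0.

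The markers were also averaged on each array. The mean deviation of the 10 genes from their own 9-array means was 0.036, 0.163 and 0.013 on the vehicle arrays, 0.045, 0.161 and -0.040 on the 10 pM arrays, and -0.127, -0.126 and -0.125 on the 100 pM arrays. The 100 pM arrays were the 3 lowest, and the second array of both vehicle and 10 pM E2 stood above the rest. Without Lyz2, the mean deviation of the other 9 genes was between -0.116 and -0.049 at 100 pM E2, between -0.014 and 0.112 at 10 pM E2 and between -0.014 and 0.117 in vehicle, so the 100 pM arrays were again the 3 lowest. Same-numbered arrays of different groups did not clearly go together over all genes. With 3 arrays per group this cannot settle whether the shared number of the 2 high arrays means a pairing.

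Over the 9 arrays, the Pearson correlation between 2 marker genes had a median of 0.313, with 38 of 45 pairs above 0, and the mean over all pairs of genes in the table was 0.00423. After the group means were subtracted, the median was 0.197, with 32 of 45 pairs above 0, and the mean over all pairs of genes was 0.00458. Medians of the other lists described below ranged from -0.167 (B cell genes) to 0.265 (class II antigen presentation genes) over the 9 arrays. After subtraction they ranged from -0.128 (osteoclast genes) to 0.327 (class II genes). Likeness within groups was therefore not particular to the macrophage markers. These correlations describe 9 arrays, whose values share the array and its scaling. Fcer1g stood nearest to the others, with r of 0.82 to Csf1r, 0.81 to Lyz2 and 0.80 to Ctss, and Tyrobp and Ptprc also reached 0.80. Within the groups, Cd68 had negative correlations with 6 of the other 9 genes, ranging down to -0.71 with Tyrobp. Lyz2 had the highest correlation with the mean of the list that contains it, at 0.931, and Aif1 the lowest, at 0.107.

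**Figure D3:**
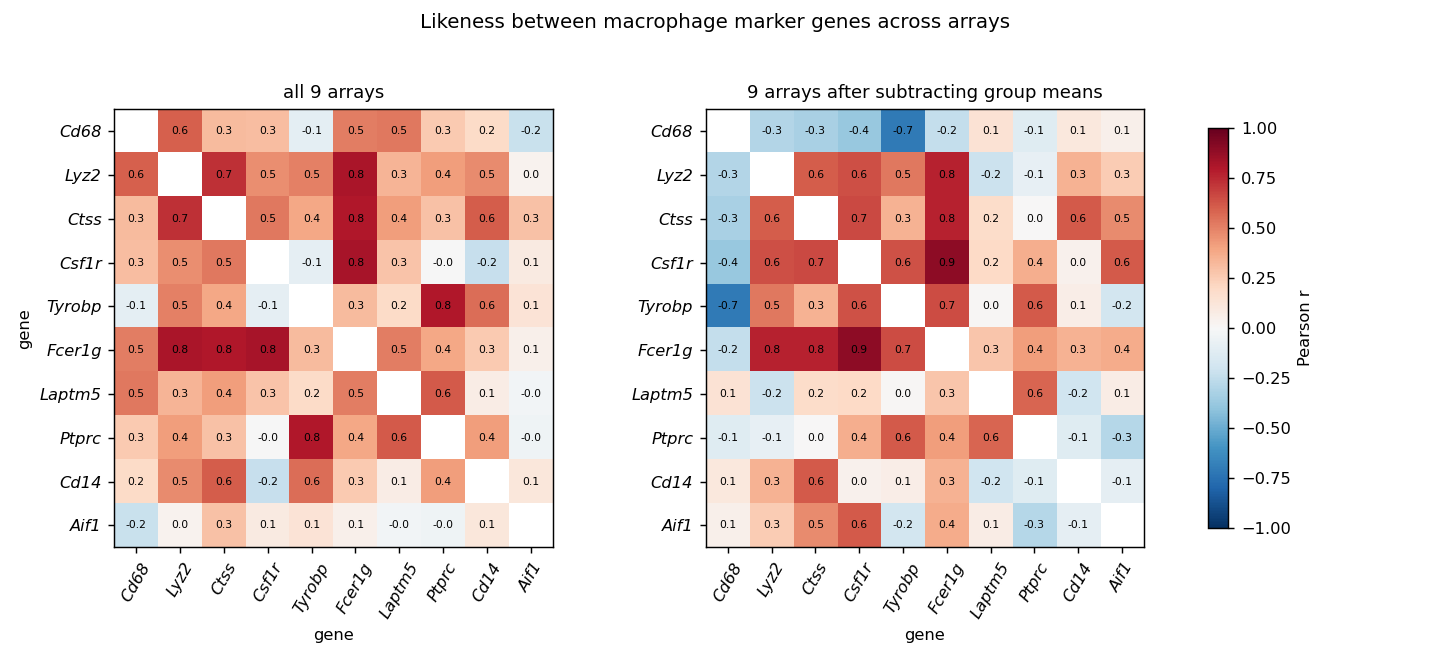
Pearson correlation over 9 arrays between each pair of the 10 macrophage marker genes, on a colour scale between -1 and 1, for the values as deposited (left) and after subtracting group means (right). Fcer1g has r between 0.77 and 0.89 with Lyz2, Ctss and Csf1r in both panels, while Cd68 is negative with 6 of 9 genes on the right.

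Further myeloid genes were examined as a list of 35, of which 32 were measured. At 100 pM E2 against vehicle, 22 of these 32 were lower and 10 higher, with a median difference of -0.0819, and limma called 1. That gene was C1qb, which codes for a chain of the complement protein C1q that tissue macrophages make. C1qb gave 5.51, 5.82 and 5.75 in vehicle, 5.51 on all 3 of the 10 pM arrays, and 5.36, 5.03 and 5.16 at 100 pM E2, so that it fell at 100 pM E2 relative to vehicle, with a difference of -0.51 (SE 0.09) and an adjusted p of 0.0433 in limma. Its value was exactly 5.50875 on all 3 of the 10 pM arrays and on the first vehicle array. The SD at 10 pM E2 was therefore 0, which narrows the spread that limma pools over the groups. The call was lost in 12 of 20 other settings, among them 7 of 9 fits that left out 1 array, with adjusted p up to 0.216. Its partner chains C1qa and C1qc had differences of -0.15 and -0.25 (adjusted p of 0.566 and 0.529). Adgre1, which codes for an adhesion receptor on mouse macrophages, differed by -0.17 (adjusted p = 0.446), the scavenger receptor Msr1 by -0.27 (adjusted p = 0.153), and the mannose receptor Mrc1 by -0.12 (adjusted p = 0.364). Spi1, which codes for the transcription factor PU.1, and Gpnmb, a lysosomal glycoprotein, lay on the other side, at 0.08 and 0.23 (adjusted p of 0.596 and 0.345).

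Growth factors and attractants of macrophages, 13 of 13 measured, gave 0 calls for 100 pM E2 against vehicle in limma, with 3 at an unadjusted p below 0.05, and 1 call for 100 pM against 10 pM E2. That was Ccl2, the chemokine that draws monocytes through the receptor Ccr2. Ccl2 gave 6.85, 6.89 and 6.82 in vehicle, 7.15, 7.21 and 7.34 at 10 pM E2, and 6.37, 6.58 and 6.77 at 100 pM E2, and no 2 of the groups overlapped. The 100 pM arrays lay below and the 10 pM arrays above vehicle. The difference between 100 pM and 10 pM E2 was -0.66 (SE 0.09, adjusted p = 0.0146 in limma), a call lost in 7 of 20 other settings, while those against vehicle, -0.28 at 100 pM and 0.38 at 10 pM, had adjusted p-values of 0.278 and 1. Csf1, the ligand of Csf1r, differed by 0.22 between 100 pM E2 and vehicle (adjusted p = 0.203) and Il34, its other ligand, by -0.01 (adjusted p = 0.992).

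Around Cd14, 14 of 15 listed genes of lipopolysaccharide sensing were measured. At 100 pM E2 against vehicle, 8 of these 14 were higher and 6 lower, with a median difference of 0.00272. Limma called 1 of them, Lbp, the secreted protein that passes lipopolysaccharide to Cd14, which fell at 100 pM E2. Lbp gave 8.77, 8.75 and 8.77 in vehicle, 8.79, 8.70 and 8.67 at 10 pM E2, and 8.44, 8.24 and 8.18 at 100 pM E2, so the 100 pM arrays stood apart. Lbp differed by -0.48 between 100 pM E2 and vehicle (adjusted p = 0.0116 in limma) and by -0.43 between 100 pM and 10 pM E2 (adjusted p = 0.0217), calls lost in 6 and 10 of 20 other settings. Ly86, which codes for a partner of the lipopolysaccharide sensor Cd180, differed by -0.30 between 100 pM E2 and vehicle (adjusted p = 0.149) and Tlr4 by 0.06 (adjusted p = 0.638).

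Of 17 listed genes of ITAM signalling around Tyrobp and Fcer1g, receptors such as Trem1 included, 13 were measured. At 100 pM E2, 8 were higher and 5 lower than in vehicle. Limma called 0 of them and 1 had an unadjusted p below 0.05, Card9, at 0.16 (adjusted p = 0.376), followed by the kinase gene Syk at 0.10 (adjusted p = 0.467). Of 20 measured lysosomal genes, which mesenchymal cells use as well, 13 were higher and 7 lower, with 0 called and 7 at an unadjusted p below 0.05. Ctsd, the protease cathepsin D, had a difference of 0.19 and Ctsc, cathepsin C, one of -0.25 (adjusted p of 0.143 and 0.159). The 8 measured class II antigen presentation genes had 7 higher and 1 lower, 0 called and 1 at an unadjusted p below 0.05, with H2-Eb1 at 0.25 and H2-Oa at 0.10 (adjusted p of 0.392 and 0.515).

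**Figure D4:**
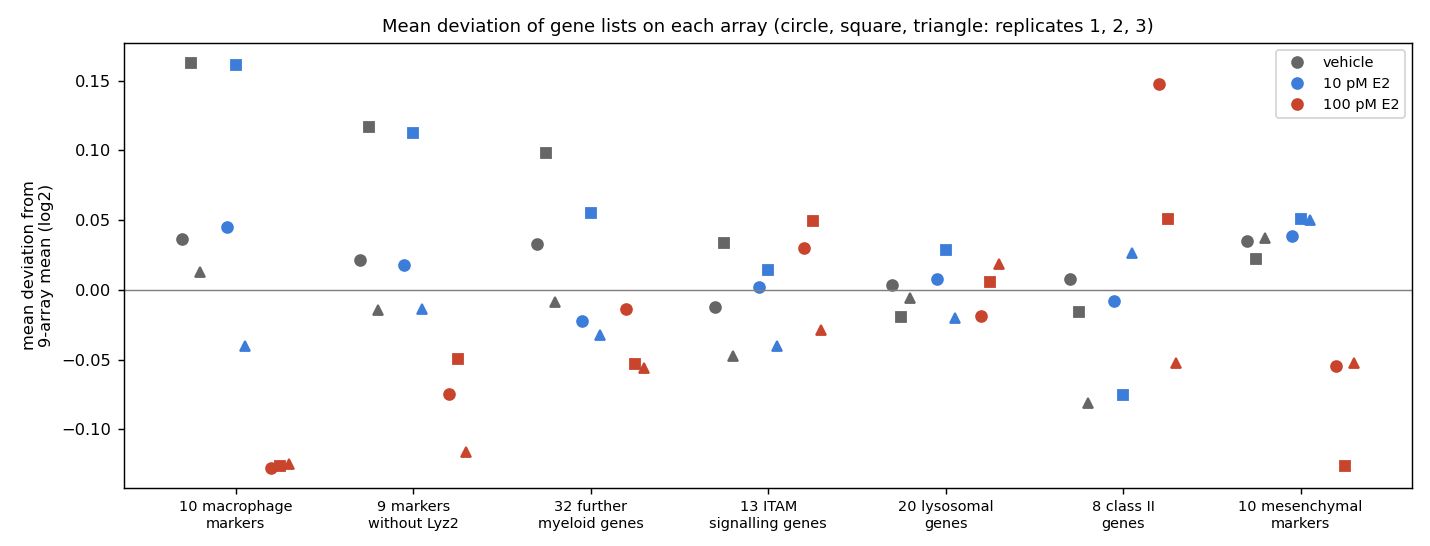
Mean deviation of 7 gene lists from the 9-array mean of each gene (vertical axis, log2), 1 point per array, with vehicle, 10 pM E2 and 100 pM E2 side by side in each list. The 10 macrophage markers and the 10 mesenchymal markers have their 3 lowest arrays at 100 pM E2. The mean of the lysosomal genes keeps within -0.020 and 0.028 on all arrays, with 13 genes higher and 7 lower at 100 pM E2 than in vehicle.

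Markers of other blood-derived cells gave 0 calls in limma in each contrast. Of 8 osteoclast genes 2 were lower at 100 pM E2 than in vehicle, with Calcr at 0.12 and Acp5 at -0.08, and of 10 neutrophil genes 4 were lower, with Ly6g at 0.25 and Elane at -0.11. Of 8 mast cell genes 2 were lower, with Kit at 0.07 and Mcpt4 at 0.05, of 10 T and NK cell genes 4, with Cd4 at 0.12 and Nkg7 at -0.12, and of 6 B cell genes 2, with Pax5 at 0.08 and Cd79a at -0.16. The unadjusted p was below 0.05 for 0, 1, 0, 1 and 1 genes of these lists in that order, and adjusted p-values of the named genes were 0.278 or more. Mean signals of the T and NK cell list lay between 4.74 and 4.88 on the 100 pM arrays and between 4.72 and 4.81 on the vehicle arrays.

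Among cells that the tissue itself can hold, markers of each of 3 types were called. Of 10 mesenchymal markers, 4 fell at 100 pM E2 relative to vehicle, Pdgfra at -0.45, Lum at -0.41, Dcn at -0.25 and Col3a1 at -0.18 (adjusted limma p of 0.00359, 0.0384, 0.0421 and 0.0469). The calls were lost in 1, 11, 13 and 15 of 20 other settings in that order, and fits that left out 1 array ended them in 0, 8, 8 and 9 of 9 cases. The mean deviation of all 10 lay between -0.126 and -0.052 on the 100 pM arrays and between 0.022 and 0.037 on the vehicle arrays. In all, 7 of the 10 were lower and 3 higher, with a median difference of -0.0183, and Vim and Fn1 were higher on all 100 pM arrays than on all vehicle arrays, by 0.13 and 0.04 (adjusted p of 0.282 and 0.698). Of 10 endothelial markers, Kdr fell by 0.98 and Emcn rose by 0.82 on the log2 scale (adjusted p of 0.00359 and 0.00399), and of 10 epithelial markers Krt18 alone was called, higher at 100 pM than at 10 pM E2 by 0.57 (adjusted p = 0.0428). The part of these genes in the differences of the macrophage markers was not tested.

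Of 19917 other genes ranked by their correlation with the mean deviation of the 10 markers over the 9 arrays, the highest were Cd82 (r = 0.956), Nckap1l (0.936), Mir297-1 (0.936), Tnfaip8 (0.934) and Olfr877 (0.934). Lyz2 weighs heavily in this mean, with r of 0.931 to it. With the mean of the markers without Lyz2, r of these genes lay between 0.871 (Tnfaip8) and 0.924 (Cd82). Nckap1l codes for a subunit of the WAVE complex that is used in blood-derived cells, and it was in none of the lists. It averaged 5.41 at 100 pM E2, 5.63 at 10 pM E2 and 5.66 in vehicle, a difference of -0.25 between 100 pM E2 and vehicle (SE 0.05, adjusted p = 0.0416 in limma), and the call was lost in each of the 9 fits that left out 1 array. Cd82, a tetraspanin, differed by -0.14 (adjusted p = 0.194). At the other end were Pole3 (r = -0.941), Fam98a (-0.933), Prkaa2 (-0.929), Ube2r2 (-0.924) and Scrn1 (-0.922). Without Lyz2 in the mean, their r lay between -0.958 (Ube2r2) and -0.873 (Scrn1). None of them was called between 100 pM E2 and vehicle in limma, with adjusted p between 0.187 and 0.443. With 9 arrays and this many genes, correlations of this size are a description only. The mean of the markers was lowest on the 100 pM arrays, so genes picked for likeness to it tend to be lower there too. The difference of Nckap1l and its p-value are therefore no separate evidence about the markers.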

How the data were processed

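Expression in 9 samples was measured on Affymetrix Mouse Gene 1.0 ST arrays. The deposited table holds a log2 value for each probeset, calculated by the authors from scanned images with GeneChip Operating Software (GCOS) and Gene Expression Console. Versions, background correction and normalization were not given in the sources used here, the log2 scale was read from the values, and the values were not centred by gene. The labels disagree on the ethanol share of the vehicle.

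The platform annotation gave 1 gene symbol to 21789 of 35556 probesets, several symbols to 1621, which stayed unnamed, and none to 12146. By Entrez identifier, 21698 of the named probesets were found among current mouse genes. Where a gene had several probesets (999 genes), the one of highest mean stood for it, and 19938 genes were tested. A model with 1 mean per group was fitted with limma 3.58.1 (lmFit and eBayes) in R 4.3.3. The procedure was run on simulated data with normal noise and planted differences larger than those of the markers. That run does not cover differences of the markers' size or values repeated across arrays. Figures used matplotlib 3.10.9, and the number of arrays limits the precision.

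The 10 markers and the 14 other lists (186 entries, 172 measured) were chosen with earlier results of these data known, so no test was run over a list. Named besides the markers were list genes called in any contrast, or the 2 of smallest p for 100 pM E2 against vehicle where none was called, and the 5 genes most and least correlated with the mean of the markers. Adgre1, Msr1, Mrc1, C1qa, C1qc, Spi1, Gpnmb, Lyz1, Csf1, Il34, Ly86, Tlr4, Vim and Fn1 were named after their values were seen. Alternatives were quantile normalization, median centring, removal of the dimmest 30% of genes, all probesets, the mean of a gene's probesets, array weights, eBayes with trend and robust, the replicate block, only the compared groups, tests without moderation (for 3 groups the methods' one-way analysis of variance), an adjusted p below 0.10, and leaving out each array.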

Additional observations from a re-analysis of the deposited data

Results flagged for a closer look

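None of the 10 macrophage markers met a rule for a closer look, and groups of 3 arrays were not examined for single outlying arrays. Among genes of the other lists, the effects of 100 pM and 10 pM E2 relative to vehicle differed by the limma test of 100 pM minus 10 pM E2 for 8 genes. The chemokine gene Ccl2 differed by -0.66 and Lbp by -0.435. The endothelial markers Kdr and Emcn differed by -0.86 and 0.648, and the epithelial marker Krt18 by 0.569. The mesenchymal markers Pdgfra, Dcn and Lum differed by -0.51, -0.319 and -0.46. Leaving out 1 array ended these calls in 4 of 9 fits for Ccl2, 7 for Lbp, 2 for Kdr, 3 for Emcn, 8 for Krt18, 0 for Pdgfra, 3 for Dcn and 7 for Lum.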

How the results depend on the processing

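Limma called 0 of the 10 markers for 100 pM E2 against vehicle, and 1, Cd68, with quantile normalization (adjusted p = 0.0494), without the dimmest 30% of genes (0.0246, with Aif1 left out), with trend and robust (0.0388), with array weights (0.0485), at an adjusted p below 0.10 (0.0525), and without the first 100 pM array (0.0249). Over all alternatives its adjusted p ranged from 0.0246 to 0.197 and its difference from -0.33 to -0.26. Leaving out 1 array gave 0 to 1 called markers for 100 pM E2 against vehicle and 0 to 0 in the other contrasts and the F test. The median difference of the markers then ranged from -0.159 (without the third vehicle array) to -0.0844 (without the second) for 100 pM E2 against vehicle, from -0.0816 to 0.0566 for 10 pM E2 against vehicle, positive at 0.0330 without the third 10 pM array and at 0.0566 without the second vehicle array, and from -0.168 to -0.116 for 100 pM against 10 pM E2. Signs turned for uncalled differences of 10 pM E2 and vehicle, for Ctss (0.0259 without the first and 0.0228 without the third 10 pM array, 0.112 without the second vehicle array, range -0.153 to 0.112), Lyz2 (0.109 without the third 10 pM array, range -0.330 to 0.109) and Laptm5 (0.0484 without the second vehicle array, range -0.110 to 0.0484). They also turned for Csf1r between 100 pM and 10 pM E2 (-0.00864 without the third 10 pM array, range to 0.0876) and for Aif1 between 100 pM E2 and vehicle (-0.0158 without the third vehicle array, range to 0.0489). The cause was not tested.

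Over the whole table, calls for 100 pM E2 against vehicle, 226 here, were 343 without the dimmest genes, 119 over all probesets, 349 with trend and robust, 10 with only the compared groups, 30 without moderation, 365 at an adjusted p below 0.10, and 88 to 259 without 1 array. For 100 pM against 10 pM E2, 166 calls here were 291, 30, 284, 1, 1, 302 and 30 to 178 in the same order. By the F test, 168 calls were 310, 65, 308, 1 by one-way analysis of variance, 310 at an adjusted p below 0.10, and 85 to 176 without 1 array. Fits on fewer arrays have fewer degrees of freedom. With the replicate number as a block, 0 markers were called in each contrast, and whole-table calls were 168 for 100 pM E2 against vehicle, 1 for 10 pM E2 against vehicle and 133 for 100 pM against 10 pM E2, and the block ended the calls of C1qb (adjusted p = 0.116) and Nckap1l (0.0684). Same-numbered arrays correlated between -0.112 and 0.2 after subtracting group means, and 3 of 9 arrays correlated best with their own number. These values show no clear pairing by number, but with 3 arrays per group they cannot exclude one.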
